A study of Mus musculus with 4 samples.

Results

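The proteasome genes described here are the 48 genes of a mouse array whose only symbol in the platform's annotation is Psm followed by a letter from a to g, a number and, in some, further letters. They are 48 of 14386 named genes and lie on 96 of 32064 named spots, 2 neighbouring spots per gene. By prefix, 18 belong to the core (Psma and Psmb), 7 to the regulatory base (Psmc), 14 to the lid and others (Psmd) and 9 to the activators and assembly factors (Psme, Psmf and Psmg). Psmc3ip matched by its symbol alone: its product works in meiotic recombination and is not a proteasome subunit, so it is counted with the 48 and kept out of the groups by role. Psmb4 and Psme2 are the other RefSeq genes with such a symbol, 2 of 50, and were not on a named spot here.

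The cells were CGR8 mouse embryonic stem cells, a single line, and the labels name no genotype or added agent. Embryoid bodies, the aggregates in which stem cells differentiate, were grown as hanging drops, and total RNA of day 3 and of day 10 was each hybridised with RNA of undifferentiated day 0 cells on arrays with 2 channels. There are 2 arrays for each day, and the labels call the second a technical replicate, so each day is 1 RNA pair. The value after ± is therefore the SD of 2 technical arrays, which measures technical error only, and there is no test between biological replicates. The sources used here do not say which dye or which channel's RNA forms the numerator of the log2 ratio, and the day 10 titles only name day 0 before day 10. Values are accordingly on the deposited "positive side" or "negative side", with the median of each array set to 0, and a side does not say which day was higher. In RNA of whole embryoid bodies, fewer cells of a type and less RNA per cell cannot be told apart.

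The proteasome is the barrel-shaped protease that degrades proteins tagged with ubiquitin in the cytosol and nucleus. Its core is built of rings of alpha subunits (Psma genes), which gate the barrel, and of beta subunits (Psmb genes), a few of which cut the substrate. A regulatory cap, with a base of ATPases (Psmc genes) and a lid that removes ubiquitin (Psmd genes), binds, unfolds and feeds in the substrate, while activators (Psme genes) can replace the cap and dedicated chaperones assemble the whole. Subunits are needed in fixed proportions, and transcription factors such as Nfe2l1 are known to drive many of the genes together. Pluripotent stem cells are known for high proteasome activity, and embryonic stem cells can exchange catalytic beta subunits for their immunoproteasome counterparts.

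The sequence just before the transcription start is shown for 5 genes, because coordinated control of proteasome genes is known to act there: Psmb5 and Psmb6 encode catalytic subunits, Psmb3 and Psmd10 had among the closest technical values, and Psmc4 was the only gene beyond 2-fold. The same reasons fit members that are not shown, such as Psmb7, which encodes a catalytic subunit, and Psmd7, whose technical values were also close. The sequences are RefSeq promoter sequences of GRCm38.p6, 5′ to 3′ on the gene's strand and ending at the base before the annotated start. They have 100 bases each except 30 for Psmb6, where another transcript starts farther upstream. Capitals mark the core of the antioxidant response element bound by Nfe2l1 and Nfe2l2 (TGACNNNGC) and the CCAAT box, each searched on both strands. No base was counted under both motifs in these windows.
Psmb5: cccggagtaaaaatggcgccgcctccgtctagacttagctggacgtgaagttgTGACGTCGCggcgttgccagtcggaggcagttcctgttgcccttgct
Psmb6: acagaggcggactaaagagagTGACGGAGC
Psmb3: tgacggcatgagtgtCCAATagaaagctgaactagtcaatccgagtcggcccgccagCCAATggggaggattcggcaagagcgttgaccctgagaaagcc
Psmd10: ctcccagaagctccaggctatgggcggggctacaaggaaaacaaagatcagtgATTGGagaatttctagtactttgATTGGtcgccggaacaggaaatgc
Psmc4: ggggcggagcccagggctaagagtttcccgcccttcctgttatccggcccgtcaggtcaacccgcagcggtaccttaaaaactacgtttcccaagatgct

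The Psmb5 window is chr14:54617996-54618095 on the minus strand, with its element at -47 from the start. The Psmb6 window is chr11:70525327-70525356 on the plus strand, with its element at -9. The Psmb3 window, chr11:97703334-97703433 on the plus strand, has CCAAT boxes at -85 and -43. Psmd10, at chrX:140956712-140956811 on the minus strand, has them in reverse orientation at -47 and -24. The Psmc4 window, chr7:28050093-28050192 on the minus strand, held neither motif. Over the full promoters, 250 bases before and 50 after the start, 40 members had an entry. Of these, 6 (15%) held the antioxidant response element core, against 13.99% of 27025 genes, and 15 (37.5%) held a CCAAT box, against 41.1%. These shares are near those of all genes, and a match is a description of letters, not a binding site. All windows shown but that of Psmc4 hold a motif, so they are not typical of the members.

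An array carried between 37471 and 41386 values for its 46128 spots, and the first day 10 array had the fewest, with 18.8% of spots empty. With a single pair of arrays for each day, precision is limited by their number. Of 10 markers of undifferentiated stem cells, 9 were measured at day 3 and all 9 had a mean on the negative side (range -2.71 to -0.29), against 49.5% of all genes. Of these 1, Dppa5a at -2.74 and -2.69, was beyond 2-fold, against 1.03%. At day 10, 8 were measured, 6 on the negative side, against 50.7% of all genes, and none beyond 2-fold, against 3.54%. These are ratios and not levels, and they were not used to settle the direction. Of markers of fibroblast feeder cells and of visceral endoderm, 8 and 9 were measured at day 3, with medians of 0.09 and 0.16, and 8 and 7 at day 10, with -0.22 and 0.32, and 1 of them, Apob at day 3, passed 2-fold on the positive side, against 1.77% of all genes.

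No proteasome gene was beyond 2-fold on both arrays at day 3, and 1 was at day 10. Of 45 members with a value on both day 3 arrays 0 were called, where 2.80% of 13707 genes were. Of 46 members at day 10, 1 was called, or 2.17%, against 3.54% of 13199 genes. A gene is called where both technical arrays share a side and have an absolute log2 ratio of 1 or more. The members' means ran from -0.96 to 1.17 at day 3 and from -1.56 to 1.76 at day 10. Their median was -0.09 at day 3, with array medians of -0.22 and -0.05, and -0.25 at day 10, with array medians of -0.08 and -0.36. The median of all genes was 0.01 and -0.01. At day 10, 27 of 46 members had a mean below 0, against 50.7% of all genes, and 19 above, against 49.3%. At day 3, 25 of 45 were below 0, against 49.5%, and 20 above, against 50.5%.

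**Figure D1:**
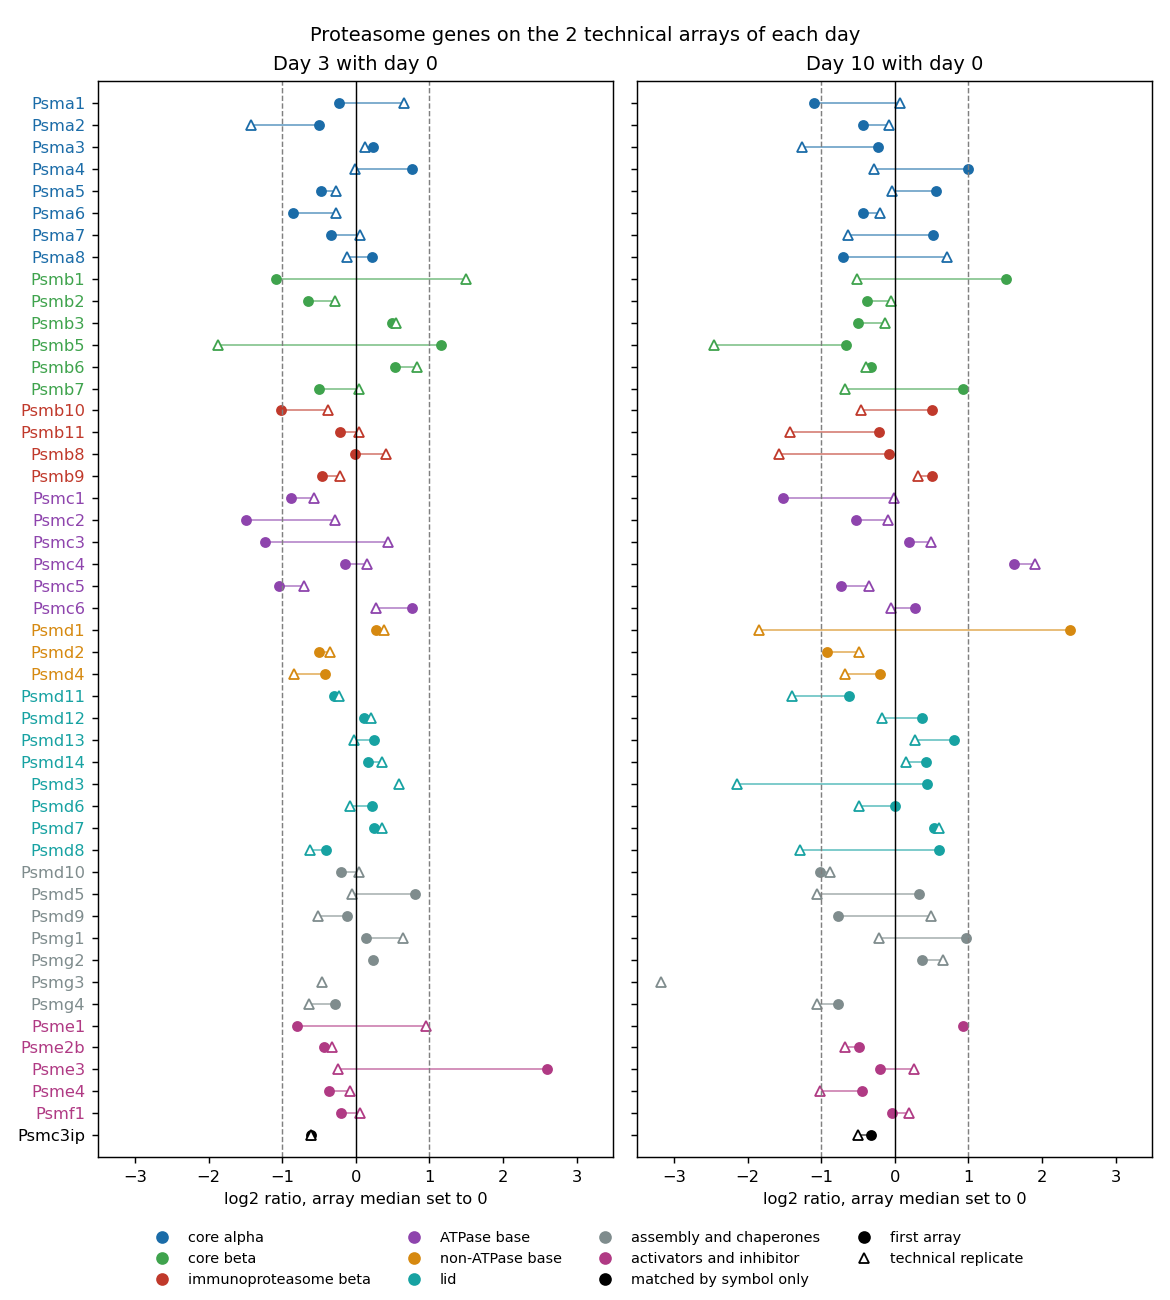
Log2 ratio of each of the 48 proteasome genes (rows, coloured by role) on the first array (filled circle) and the technical replicate (open triangle) of day 3 (left) and day 10 (right), array median set to 0, with dashed lines at 2-fold. Only Psmc4 at day 10, at 1.62 and 1.90, has both points beyond the same dashed line, and Psmb1, Psmb5 and Psmd1 have points beyond opposite lines on 1 day.

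The alpha ring genes lay close to the array median. Their 8 members had a median of -0.05 at day 3 (range -0.96 to 0.38) and -0.16 at day 10 (range -0.75 to 0.36). Psma2, an alpha ring subunit, was farthest out at day 3, with -0.50 and -1.43 (mean -0.96 ± 0.65), and had -0.25 ± 0.24 at day 10. Its duplicate spots did not match on the second day 3 array, where they read -0.08 and -2.77, so the low mean there came from 1 spot. Psma3, another alpha subunit, had 0.24 and 0.12 at day 3 and -0.23 and -1.26 at day 10, a mean of -0.75 ± 0.73. With the spot whose technical arrays lay closest in place of the mean of spots, its day 3 value was -0.11. That closest spot was chosen for each day by itself, so values at day 3 and day 10 can come from different spots. Psma6 was the alpha gene with the closest arrays at day 10, with -0.56 ± 0.42 and -0.32 ± 0.16 on the respective days. Psma5 had -0.37 ± 0.14 and 0.26 ± 0.43. Psma1 (-0.51 ± 0.83), Psma4 (0.36 ± 0.90), Psma7 (-0.06 ± 0.81) and Psma8, the testis form of an alpha subunit (0.00 ± 1.01), had day 10 arrays on either side of 0.

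Of the structural beta subunits, Psmb3 was one of the best measured members. It read 0.50 and 0.55 at day 3 (0.52 ± 0.04) and -0.50 and -0.14 at day 10 (-0.32 ± 0.26). Its arrays were thus all positive at day 3 and all negative at day 10, none beyond 2-fold. Psmb2 had -0.46 ± 0.26 and -0.21 ± 0.23. Psmb1 had -1.08 and 1.49 at day 3 and 1.51 and -0.51 at day 10, so its technical arrays contradict each other and its means of 0.21 ± 1.82 and 0.50 ± 1.43 carry no direction.

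The catalytic beta subunits come in a constitutive set (Psmb5, Psmb6 and Psmb7) and an interferon-inducible set that replaces it in the immunoproteasome (Psmb8, Psmb9 and Psmb10). Psmb6, which carries the caspase-like activity, had 0.54 and 0.84 on the day 3 arrays (0.69 ± 0.21). On the day 10 arrays it had -0.32 and -0.39 (-0.36 ± 0.05). Its 4 spot values at day 3 were 0.62, 0.46, 0.83 and 0.85, all on 1 side, while at day 10 1 of the 4, at 0.19, stood apart from the others. Psmb5, the chymotrypsin-like subunit and the target of proteasome inhibitors, read 1.15 and -1.87 on the day 3 arrays. At day 10 it read -0.66 and -2.46, and its spots on the first array alone were -3.07 and 1.75. Neither day gives Psmb5 a usable value, and the gene is dim, with a brightness (estimated from the ratios, as described with the error values) at percentile 8.26 of all genes. Psmb7, the trypsin-like subunit, had -0.23 ± 0.38 at day 3 and 0.92 and -0.67 on the day 10 arrays (0.12 ± 1.13). With the closest spot of each day its sides turned, to 0.21 at day 3 from spot 1 and -0.37 at day 10 from spot 2. These are different spots, so the values do not follow 1 spot between the days.

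The immunoproteasome genes gave no common side. Psmb9 had -0.46 and -0.21 at day 3 and 0.51 and 0.32 at day 10, means of -0.33 ± 0.17 and 0.41 ± 0.14. The arrays of each day kept to 1 side, but the spots of Psmb9 did not: on the first day 3 array they read 0.31 and -1.23. With the closest spot in place of the mean of spots, Psmb9 had 0.05 at day 3, from spot 1, and -0.09 at day 10, from spot 2. Its side on each day thus turns with the spot, and these values do not follow 1 spot. Psmb10 had -1.01 and -0.38 at day 3 (-0.69 ± 0.45), and 0.50 and -0.46 at day 10 (0.02 ± 0.68), where the arrays fell on either side of 0. Psmb8 had -0.01 and 0.41 at day 3 and -0.08 and -1.57 at day 10, a mean of -0.83 ± 1.05. Its spots contradicted each other at day 3, with -0.98 and 0.95 on the first array and -0.20 and 1.02 on the second. With the closest spot it had 0.98 at day 3, from spot 2, and -0.26 at day 10, from spot 1. Psmb11, the beta subunit of thymus epithelium, had -0.09 ± 0.18 and -0.82 ± 0.85. The median of these 4 genes, with Psmb11 counted although it is outside the interferon-inducible set, was -0.21 at day 3 and -0.40 at day 10. The day 10 arrays taken singly had medians of 0.21 and -0.94. Among Psmb8, Psmb9 and Psmb10 alone the middle value was -0.33 (Psmb9) at day 3 and 0.02 (Psmb10) at day 10. Leukocytes are rich in immunoproteasome, and 9 of 12 leukocyte markers were measured at day 3. Their means ran from -5.03 ± 3.90 for Cd3e, with -7.79 and -2.27, to 2.18 ± 2.93 for Itgam, with 4.25 and 0.11, so the highest mean rests on 1 array. Cd3e was the 1 of 9 beyond 2-fold, on the negative side, against 1.03% of all genes. At day 10, 8 were measured, between -0.94 and 0.80, none beyond 2-fold, against 3.54%. The files hold ratios, so whether any marker is near 0 cannot be read, and the part of such cells in these values was not tested.

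**Figure D2:**
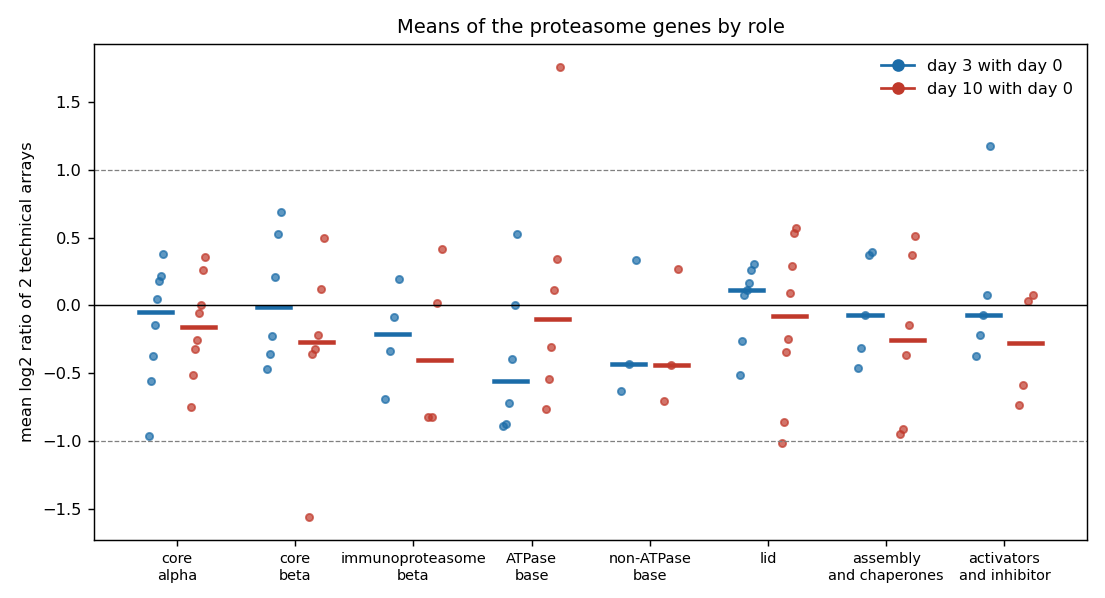
Mean log2 ratio of 2 technical arrays for each proteasome gene (points) and the median of each group (bars), by role, at day 3 (blue) and day 10 (red), with dashed lines at 2-fold. The ATPase base has the lowest median at day 3, -0.56, and Psmc4 at day 10 is the highest point, at 1.76. The immunoproteasome beta group includes Psmb11.

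The ATPase base had the lowest median of the groups at day 3, -0.56 over 6 genes, but the first array had -0.96 and the second -0.07, so the size of that value rests on the first array. These ATPases form the ring that unfolds substrates. Psmc5 and Psmc1 had both arrays low: Psmc5 had -1.04 and -0.71 (-0.87 ± 0.23) and Psmc1 -0.88 and -0.56 (-0.72 ± 0.22). Psmc2 had -1.49 and -0.29 (-0.89 ± 0.85), and its spots on the first array read -3.27 and 0.29. Psmc3 had arrays on either side of 0, at -1.23 and 0.44. Psmc6 was on the positive side, at 0.77 and 0.28 (0.52 ± 0.35), or 0.06 with the closest spot. At day 10 the group's median was -0.10, with Psmc5 at -0.73 and -0.36 (-0.54 ± 0.27) and Psmc1 at -1.52 and -0.01 (-0.76 ± 1.06). Psmc2 was at -0.31 ± 0.31, or -0.71 with the closest spot. Psmc3 was at 0.34 ± 0.20, and its side turned, to -0.11, with the closest spot. Psmc6 was at 0.11 ± 0.24.

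Psmc4, another of the ATPases, was the only member called in any comparison. It read -0.15 and 0.15 at day 3 and 1.62 and 1.90 at day 10, means of 0.00 ± 0.21 and 1.76 ± 0.20. The day 10 values are 1 spot each, and not the same spot: the first array has a value for spot 1 and none for spot 2, and the second array the reverse. The close agreement is thus between different spots on different arrays. The gene is dim, with a brightness percentile of 17.6 over all of its values. The lowest were the day 3 readings of spot 2, with a log2 brightness of 7.16 and 7.63. The day 10 readings had 10.46 and 10.73. At day 10, 3 of 46 members had no spot measured on both arrays (Psmc4, Psmd1 and Psmg2), against 2.99% of 13199 genes, and 6.21% of the 467 genes called beyond 2-fold had none. Psmd1 shows how far such a pair can part: spot 1 gave 2.38 on the first array and spot 2 gave -1.85 on the second.

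Of the other base genes, Psmd2 encodes the largest scaffold of the cap beside Psmd1, and Psmd4 a ubiquitin receptor. Psmd2 was well measured and had -0.51 and -0.35 on the day 3 arrays (-0.43 ± 0.11). It had -0.93 and -0.48 on the day 10 arrays (-0.70 ± 0.31). All of its spots were on the negative side on every array. Psmd4 had -0.63 ± 0.30 and -0.44 ± 0.34, where no array passed 2-fold. Psmd1 read 0.28 and 0.39 at day 3 (0.34 ± 0.08), while its day 10 readings of 2.38 and -1.85 leave a mean of 0.27 ± 2.99 with no direction.

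The lid genes had a median of 0.11 over 7 measured members at day 3 and -0.08 over 8 at day 10. The day 10 arrays taken singly had medians of 0.43 and -0.34, so the side of the group at day 10 turns with the array. Psmd7, a structural partner of the deubiquitinase, had 0.25 and 0.36 on the day 3 arrays (0.30 ± 0.08). On the day 10 arrays it had 0.53 and 0.61 (0.57 ± 0.05). Its spots were on the positive side on every array, and it was the only member with 4 positive spot values at day 10. Psmd14, the deubiquitinase that strips ubiquitin from substrates, had 0.26 ± 0.14 and 0.29 ± 0.19. Psmd11, a lid scaffold, had -0.30 and -0.23 at day 3 (-0.26 ± 0.05) and -0.63 and -1.39 at day 10 (-1.01 ± 0.54). The second array alone was beyond 2-fold. Psmd13 had 0.80 and 0.27 at day 10 (0.54 ± 0.37) but is dim, at a percentile of 5.96. Psmd8 had 0.61 and -1.29 and Psmd3 0.43 and -2.14 at day 10, each on either side of 0, and Psmd3 had no value on the first day 3 array. Psmd12 and Psmd6 stayed between -0.25 and 0.16 in their means.

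Among the assembly factors, Psmd10 and Psmg4 had close day 10 values on the negative side, near 2-fold. Psmd10, known as gankyrin, is a chaperone of base assembly that also binds cell cycle regulators. It read -0.19 and 0.05 at day 3 and -1.01 and -0.88 at day 10, means of -0.07 ± 0.17 and -0.95 ± 0.09. Its 4 day 10 spot values were -0.87, -1.15, -0.87 and -0.90, so spots and arrays gave nearly 1 value, although the second array fell just short of 2-fold. Psmg4, a subunit of the chaperones that build the alpha ring, had -0.29 and -0.63 at day 3 (-0.46 ± 0.24). It had -0.77 and -1.05 at day 10 (-0.91 ± 0.20), with all of its spots on the negative side on every array. Psmd9 and Psmd5, chaperones of the base, had day 10 arrays on either side of 0, at -0.77 and 0.49 and at 0.33 and -1.05. Psmg1, the chaperone partner of Psmg2, had 0.40 ± 0.35 and 0.37 ± 0.84. Psmg2 had 1 array at day 3 and 0.51 ± 0.19 at day 10, and Psmg3 had 1 array at each day, with -0.46 and -3.17, so neither mean of Psmg3 could be formed.

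Among activators and the inhibitor, Psme4, which encodes a large activator of the core known from sperm and DNA repair, had -0.36 and -0.07 at day 3. It had -0.45 and -1.01 at day 10, a mean of -0.73 ± 0.40. Psme2b, at -0.37 ± 0.08 and -0.59 ± 0.14, is a retrocopy nearly identical to Psme2, a subunit of the interferon-inducible activator, so its spots can carry signal of either gene and its value is uncertain. Psme1, the partner of Psme2, had -0.80 and 0.95 at day 3 and 1 array at day 10. Psme3, the nuclear activator, had the highest mean of any member at day 3, 1.17 ± 2.01, from readings of 2.59 and -0.24. It is the dimmest member, with a percentile of 0.466, and its spots on the second array read 1.45 and -1.93. The inhibitor gene Psmf1 had -0.07 ± 0.18 and 0.07 ± 0.16. Psmc3ip, the member matched by symbol alone, ranks highest in estimated brightness, with a percentile of 99.2, and had -0.61 ± 0.00 and -0.41 ± 0.13. None of its spot values is a ratio of whole numbers up to 10000, so that rank need not reflect signal.

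**Figure D3:**
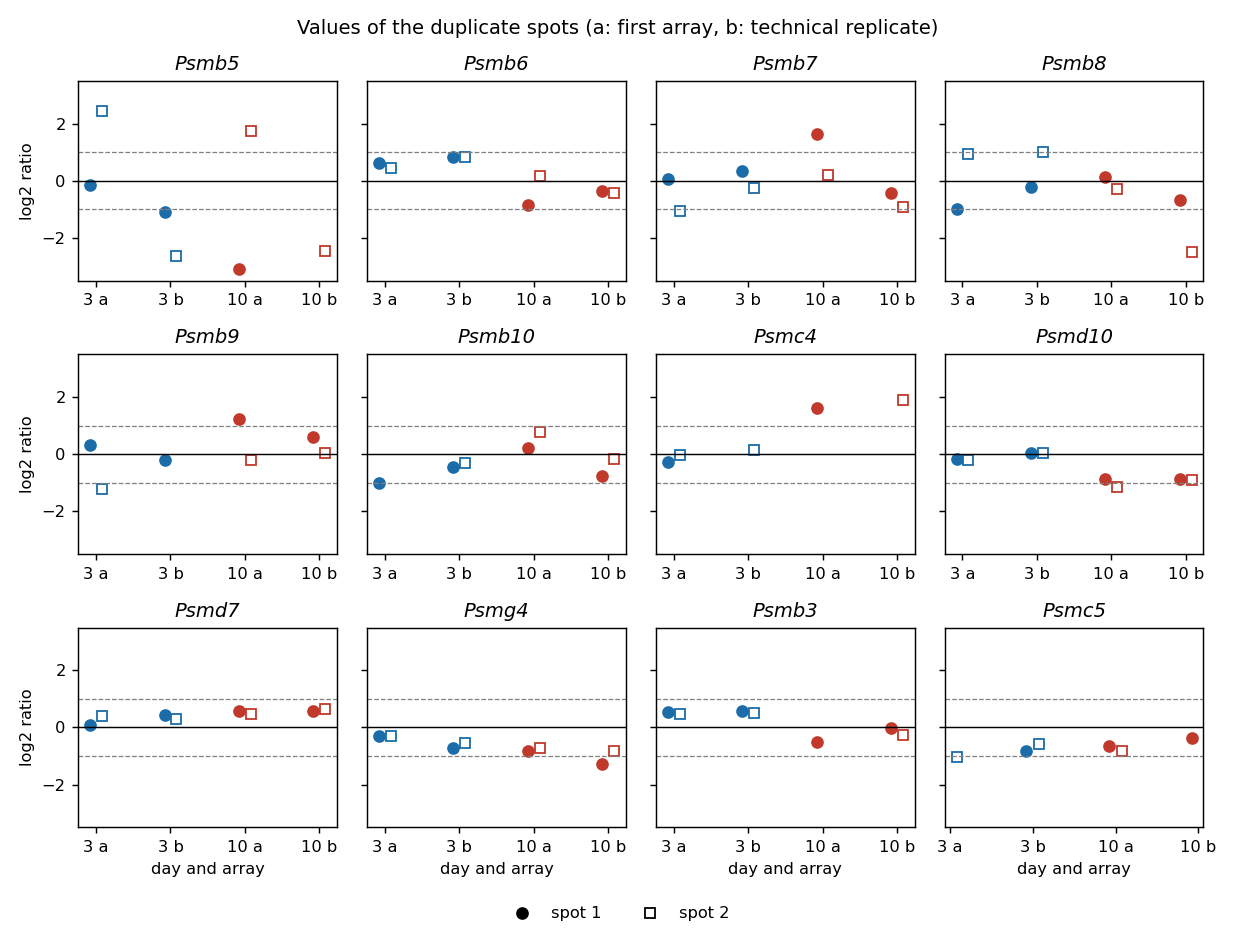
Log2 ratio of both duplicate spots (filled circle, spot 1; open square, spot 2) of 12 proteasome genes on the first array (a) and technical replicate (b) of day 3 (blue) and day 10 (red). The 4 day 10 spots of Psmd10 lie between -1.15 and -0.87, those of Psmb5 between -3.07 and 1.75, and Psmc4 has 1 spot on each day 10 array.

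The sides taken by single spots give a view that needs no limit on size. At day 3, 18 of 33 members with both spots measured on both arrays had all 4 values on 1 side (54.5%, against 40.3% of 9212 such genes), and at day 10 8 of 33 (24.2%, against 35.9% of 7592). On the negative side at day 3 were 12 members, or 36.4%, against 21.3% of such genes. They were Psma2, Psma5, Psmb2, Psmc1, Psmc3ip, Psmd2, Psmd4, Psmd8, Psmd11, Psme2b, Psme4 and Psmg4. A further 6 had all 4 on the positive side, or 18.2%, against 19.0%: Psmb3, Psmb6, Psmc6, Psmd1, Psmd7 and Psmd12. At day 10, 7 were all negative, or 21.2%, against 21.2% of such genes (Psma3, Psmc3ip, Psmd2, Psmd10, Psme2b, Psme4 and Psmg4), and 1, Psmd7, was all positive, or 3.03%, against 14.7%. Differences from the other shares were not tested, since spots of 1 array and genes of 1 complex are not independent.

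Brightness moved with both error and side. Brightness was recovered from the values, most of which are ratios of whole numbers: it is the geometric mean of the smallest pair of whole numbers that gives the ratio, and its percentile ranks the gene among all genes. It is an estimate from the ratios and not a measured intensity, and values that are no such ratio count as bright. Of the first 3000 values of an array, between 58.2% and 64.5% were ratios of whole numbers up to 10000. A high percentile can therefore mark values that are not. In the brighter 50% of genes were 27 members, whose median SD between technical arrays was 0.21 at day 3 and 0.34 at day 10. For the 21 dimmer members the median SD was 0.35 and 0.43. Bright members had medians of -0.23 at day 3 and -0.34 at day 10, beside -0.06 and -0.14 for all bright genes. Dim members had 0.09 and 0.11, beside 0.10 and 0.17 for all dim genes. The negative side was thus the side of bright members and of bright genes in general, and the part of brightness in the members' values was not tested. Duplicate spots on 1 array differed with a median SD between 0.18 and 0.37 for members, and between 0.24 and 0.38 for all genes with 2 spots.

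**Figure D4:**
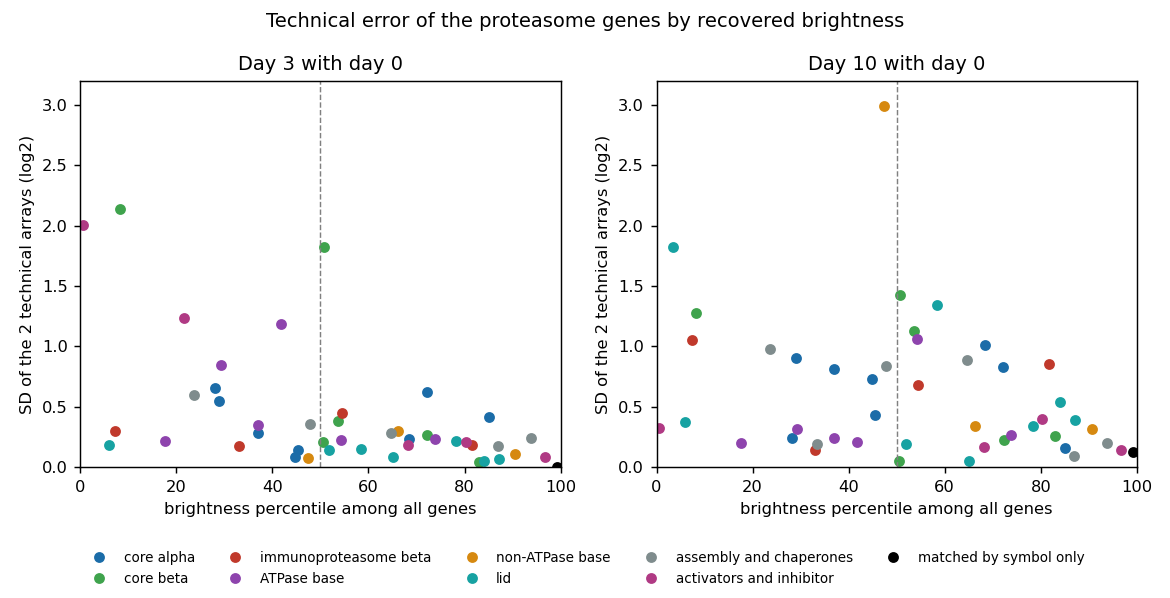
SD of the 2 technical arrays (log2) of each proteasome gene against its brightness percentile among all genes, at day 3 (left) and day 10 (right), coloured by role, with a dashed line at the 50th percentile. The largest SDs, 2.14 for Psmb5 at day 3 and 2.99 for Psmd1 at day 10, are left of the line, Psmd1 only just, at a percentile of 47.4. Psmb1, just right of it at 50.7, has SDs of 1.82 and 1.43. Members above a percentile of 90 have SDs of at most 0.31.

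Technical arrays beyond 2-fold on opposite sides measure error directly. At day 3 this held for 2 of 45 members, Psmb1 and Psmb5, or 4.44%, against 0.744% of all genes. At day 10 it held for 1 of 46, Psmd1, or 2.17%, against 1.48%. More members were thus contradicted by their arrays at day 3 than were called, of which there were 0.

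Day 10 was set against day 3 through the day 0 RNA, which is taken as common to all arrays although the labels do not state it. The same numerator at both days is also assumed and not stated, and the differences below hold only if it was. Of 44 members with values on all 4 arrays, 1 passed 2-fold in each of the 4 pairings of a day 10 with a day 3 array, or 2.27%, against 3.54% of 12654 genes (1.82% towards positive values and 1.72% towards negative ones). It was Psmc4, with a difference, day 10 minus day 3, of 1.76 ± 0.29, from the single spots described above. The median difference over the members was -0.02, beside -0.01 for all genes, and 23 of 44 differences were below 0, against 50.8% of all genes, and 21 above, against 49.2%. Psmb6 differed by -1.05 ± 0.22, Psmd10 by -0.88 ± 0.20, Psmb3 by -0.85 ± 0.26 and Psmb9 by 0.75 ± 0.22. Each differed by over 2 of its SDs, as did Psmd7 at 0.26 ± 0.10, and none of these passed 2-fold in every pairing. With the closest spot of each day Psmb9 differed by -0.14, but this sets spot 2 at day 10 against spot 1 at day 3. These SDs measure technical error only, and the share of all genes that differ by as much was not taken. The arrays were all positive at day 3 and all negative at day 10 for 3 of 44 members (Psma3, Psmb3 and Psmb6), or 6.82%, against 7.68% of all genes. The reverse held for 1, Psmb9, or 2.27%, against 6.27%. The median difference was 0.45 for the 6 ATPase base genes, but -0.06 without the first day 3 array and 0.84 without the second, and 0.14 for the 2 of them in the brighter 50% of genes. It was -0.30 for the 6 core beta genes, or 0.25 for the 5 brighter ones, and ran from -0.69 without the first day 10 array to -0.11 without the second. It was -0.46 for the 5 assembly factors, and -0.46 for the 3 brighter ones. For the 4 activators and inhibitor it was -0.36, or -0.21 for the 3 brighter ones. Leaving out 1 array in turn, it ran from -0.55 (without the first day 10 array) to -0.11 (without the second).

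Genes that tag proteins for the proteasome or work at its gate were taken from a list of 84 symbols, older names included, of which 62 were on named spots. At day 3, 2 of 60 measured were beyond 2-fold on the positive side and none on the negative, against 1.77% and 1.03% of all genes. They were the ubiquitin-conjugating enzyme gene Ube2g1, at 3.14 and 1.49 (2.31 ± 1.17), and the ubiquitin ligase scaffold Cul4b, at 1.17 and 1.01 (1.09 ± 0.11). At day 10, 2 of 59 were on the positive side and none on the negative, against 2.15% and 1.39%: the conjugating enzyme gene Ube2h, at 1.30 and 1.12 (1.21 ± 0.13), and the ligase receptor gene Skp2, at 1.32 and 1.02 (1.17 ± 0.21). Ube2h also differed between the days, by 1.70 ± 0.46, and Ube2g1 by -2.20 ± 1.17. With the closest spot in place of the mean of spots, Ube2h had -1.15 at day 3 and 1.90 at day 10, so its spots did not match. Its difference was then 3.05, and that of Ube2g1 was -1.90, each from the spot chosen by day, which need not be the same spot. The list's median was 0.04 at day 3 and -0.03 at day 10, close to that of all genes. Skp2 and Cul4b are dim, with percentiles of 1.98 and 11.0. Their calls rest on 1 of 2 spots each. The closest spot gave the same value as the mean of spots, 1.17 for Skp2 at day 10 and 1.09 for Cul4b at day 3.

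The partners that act on the assembled proteasome had no called gene. Usp14, a deubiquitinase bound to the cap, had 0.30 and 0.31 at day 3 and 1.501 and 0.80 at day 10 (1.15 ± 0.50), where 1 array was beyond 2-fold. Uchl5, the other deubiquitinase of the cap, had 0.23 ± 0.91 and -0.89 ± 1.15. Sem1, a small lid subunit outside the symbol rule, had 0.37 ± 0.06 and 0.19 ± 0.19, and Pomp, the maturation factor of the core, 0.29 ± 0.15 and 0.00 ± 0.02. Both lay on the negative side with the closest spot, Sem1 at -0.06 and -0.13 and Pomp at -0.26 and -0.14. Vcp, the segregase that hands over substrates, read 3.56 and -0.06 on the day 10 arrays, so its mean of 1.75 ± 2.56 rests on 1 array. Nfe2l1, the transcription factor of proteasome genes, was closely measured, with -0.52 and -0.88 at day 3 (-0.70 ± 0.25) and -0.51 and -0.55 at day 10 (-0.53 ± 0.03). Its estimated brightness had a percentile of 97.0, a rank that values with no whole-number ratio also receive. Nfe2l2 had -0.78 ± 0.61 at day 3 and 1.74 and -2.24 on the day 10 arrays, beyond 2-fold on opposite sides. Ubb, Uba1 and Adrm1 were not on a named spot.

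Antigen presentation genes, the neighbours of the immunoproteasome in function, had 10 of 13 symbols on named spots. None of 9 measured was beyond 2-fold at day 3, against 2.80% of all genes. At day 10, 1 of 10 was, on the negative side, against 1.39%: Tap1, a peptide transporter gene, at -1.34 and -2.15 (-1.75 ± 0.57). The list's medians were -0.25 and 0.19.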

How the data were processed

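Per the labels, RNA of day 3 or day 10 embryoid bodies and day 0 RNA shared 2-channel arrays. The deposited values were taken as log2 ratios. Of the first 3000 values of an array, between 58.2% and 64.5% were log2 ratios of whole numbers up to 10000 to their 9 decimals, against at most 1.60% in base e or base 10 or after a small random shift. The sources used here do not give the scanner, background treatment or dye correction.

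Spots were named through the platform annotation: 32544 had 1 symbol. Of these, 480 from 5 accessions that are not mouse genes were left out as controls. Arrays were centred on the median of all other spots, and a gene's spots were then averaged. Genes were called at 2-fold on both technical arrays, with no test. Members and lists were chosen with earlier results of these data known. The named genes were the 3 members farthest out on each side at each day, called members, Psmb5 to Psmb10, members with contradictory arrays, and called or preset genes of the ubiquitin list; the remaining members are named to account for all 48. The spot sides, the removal of Psmc3ip and the removal of the brightness trend were added after the data were examined. The steps were tested on simulated data. Python 3.11.15, numpy 2.4.6, pandas 2.3.3 and matplotlib 3.10.9 were used.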

Additional observations from a re-analysis of the deposited data

Results flagged for a closer look

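In 4 of 44 proteasome genes with values on all arrays, both arrays of 1 day lay on 1 side and both arrays of the other day on the opposite side; the difference between the days was not tested. Psmb6 (day 10 minus day 3, -1.05), Psmb3 (-0.85) and Psma3 (-0.93) were positive at day 3 and negative at day 10, or 6.82% of members, against 7.68% of all genes. Psmb9 (0.75) ran the other way, or 2.27%, against 6.27%. Comparing the days assumes the same numerator for both, which the labels do not state. With the spot of closest technical arrays in place of the mean of spots, the differences of Psmb6, Psmb3 and Psma3 were -1.33, -0.76 and -0.25, and that of Psmb9 was -0.14. That spot was chosen for each day by itself. For Psmb3, Psma3 and Psmb9 it was a different spot on each day, so their differences mix spots. Spot 1 of Psmb9 read 0.31 and -0.21 at day 3 and 1.23 and 0.59 at day 10. Its spot 2 read -1.23 at day 3 and -0.21 and 0.04 at day 10. For Psma3, spot 1 read 0.70 at day 3 and -0.15 and -0.57 at day 10. Its spot 2 read 0.24 and -0.46 at day 3 and -0.31 and -1.95 at day 10. The day 3 value of Psma3 with the closest spot was -0.11, so its closest spots no longer lay on opposite sides.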

How the results depend on the processing

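The count of proteasome genes beyond 2-fold stayed at 0 (day 3), 1 (day 10) and 1 (day 10 minus day 3) without centring, with scaled arrays, with the median of spots, with control spots kept, with genes on all 4 arrays, without Psmc3ip and with the brightness trend removed. With the spot of closest technical arrays it was 0 at day 10 and 0 between days, since Psmc4 has no spot measured on both day 10 arrays, and in the upper 50% of brightness also 0 and 0, since Psmc4 is dim. In that upper 50% the members' median at day 3 was -0.23. A 1.5-fold limit gave 2, 5 and 4 (day 3, Psmc3ip and Psmc5; day 10, Psmb5, Psmc4, Psmd10, Psmd11 and Psmg4; between days, Psmb3, Psmb6, Psmc4 and Psmd10), a 4-fold limit 0, 0 and 0, and 2-fold on the mean alone 1, 3 and 5. These limits were applied to the 45, 46 and 44 measured members. Shares of all genes were taken only for the 2-fold rule on every array, so counts at other settings are not a result about the members. Single arrays gave more: leaving out 1 array in turn, the count ran from 3 to 7 at day 3, from 6 to 13 at day 10 and from 2 to 7 between days. The members' median then ran from -0.22 to -0.050 at day 3, from -0.36 to -0.08 at day 10 and from -0.33 to 0.13 between days, where its side rests on the second day 10 array. The ubiquitin partners beyond 2-fold, 2 in each comparison, were 1 at day 3 and 1 at day 10 without centring, 1 at day 10 with scaled arrays and 1 with genes on all 4 arrays. In the upper 50% of brightness they were 0, 1 and 1, at 1.5-fold 4, 8 and 4, at 4-fold 0, 0 and 0, and on the mean alone 3, 8 and 8. Leaving out 1 array gave 10 and 10 at day 3, from 10 to 14 at day 10 and from 3 to 9 between days. Shares of all genes were not taken at these settings either, so these counts are not a result about the partners. With no array left out, 49 of 1249 values of single genes moved by more than the SD of the technical arrays. The closest spot turned the side of 27 of 161, where a difference between days can mix spots. Of 256 medians of groups by role, 31 moved by more than their spread between arrays; the cause was not tested. Faint spots, missing spots and the single RNA pair for each day limit what these arrays resolve. No paired analysis was possible because the labels number no replicates and no test was run.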
